A study of Danio rerio with 3 samples.

Results

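Coreceptor-low, non-cytotoxic T cells of the zebrafish kidney marrow are described here. They were taken from the marrow library as barcodes with at least 1395 unique molecular identifiers (UMIs), at least 250 detected genes and at most 10% mitochondrial UMIs, that carried 2 or more UMIs of trbc1 (FP236356.1 in the files, ENSDARG00000091233), a constant-region gene of the T cell receptor beta chain. They also had to hold 0 UMIs of the coreceptor genes cd4-1, cd8a and cd8b, of the interleukin 2 receptor subunit gene il2rb, of the NK-lysin gene nkl.1 and of the regulatory T cell factor gene foxp3a. This left 243 cells, which were 24.7% of 983 called marrow cells (exact Clopper-Pearson 95% interval 22.1 to 27.5%) and 29.7% of the 819 marrow cells with 2 or more trbc1 UMIs. The 3 libraries together gave 5948 called cells. The cells were chosen by their measured UMIs of trbc1 and of the 6 excluded genes, so the levels of these genes are not results. The coreceptor-low cells were set against 198 marrow cells with a cd4-1 UMI (cd4-1-positive) and 256 marrow cells with 2 or more il2rb UMIs (il2rb-positive). Of the called cells, 4 belonged to both of these comparison groups and 290 to none of the 3 groups.

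All fish carried the lck:GFP transgene, which places green fluorescent protein under the promoter of lck, a kinase gene of T cells. Cells were sorted within lymphoid and precursor gates as dim for the protein from kidney marrow and scale and as bright from thymus, and each tissue gave 1 droplet library. No other genotype or treatment is named, and neither the age of the fish nor the number pooled is given. Because there is 1 library a tissue, and all marrow groups come from the same library, the groups cannot be tested, and no p-values appear. Levels are UMIs summed over the cells of a group per 1000000 of its UMIs (CPM), and every interval on a level, share or fold is a 95% interval that covers counting error only, not the spread between fish.

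In bony fish the kidney marrow is the adult site of blood formation, and it also holds circulating and recirculating lymphocytes. In mammals, some but not all sphingosine-1-phosphate receptors guide lymphocytes out of tissues towards blood and lymph. The factor KLF2 keeps resting T cells quiescent and drives an egress receptor of this family and homing receptors. Whether the product of s1pr4 has such a role was not tested here. Conventional mammalian T cells carry CD4 or CD8, whereas many gamma-delta T cells carry neither coreceptor.

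The 243 cells held 1018235 UMIs, with a median of 3827 per cell (range 1430 to 43060) and 874 genes. The cd4-1-positive cells had a median of 4321 UMIs and the il2rb-positive cells 4662.5. No barcode of a called marrow cell recurred among called scale or thymus cells. The absence of an excluded transcript was a matter of few UMIs: of the trbc1-positive cells with a cd4-1 UMI, 84 of 184 held exactly 1, and of those with an il2rb UMI, 97 of 315 held exactly 1. Of the 576 trbc1-positive cells removed by the 6 genes, 150 held only 1 UMI over all 6. Just inside the trbc1 limit, 31 cells with exactly 2 trbc1 UMIs had s1pr4 at 277 CPM. Just outside it, 28 cells with 1 trbc1 UMI and none of the 6 genes had s1pr4 at 208 CPM.

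The label was checked against marker genes. All 13 matched T cell features were detected in the coreceptor-low cells, among them lck in 91 cells, zap70 in 133 and the T lineage factor bcl11ba in 166. All 13 were also detected in both comparison groups and in barcodes under 100 UMIs, so detection alone does not set the cells apart. The summed list, which includes the required trbc1, stood at 2882 CPM in coreceptor-low and 2836 CPM in cd4-1-positive cells. It stood at 1814 CPM in il2rb-positive cells and 1793 CPM in barcodes under 100 UMIs. A large part of these sums in the 3 cell groups was trbc1, which was not required of the comparison groups. Without trbc1 the summed list was lower in coreceptor-low than in cd4-1-positive cells, and lowest in il2rb-positive cells. Several defining markers of other marrow cells were at 0 UMIs: rag1 and dntt of immature thymocytes, cd79a, cd79b and pax5 of B cells, marco, csf1ra and the 3 c1q genes of macrophages, mpx and lect2l of granulocytes, and gata1a and alas2 of red cells. Other members of the same lists were detected. Of 10 immature thymocyte features 5 had a UMI, at a summed 755 CPM that was nearly all ccr9a, against 1002 CPM in cd4-1-positive and 573 CPM in il2rb-positive cells, and rag2 and arpp21 had 1 UMI each. This list holds cd4-1, cd8a and cd8b, which the rule set to 0 in coreceptor-low cells, while cd4-1 was required in cd4-1-positive cells. The count and the sums are thus partly set by these choices. Of 13 B cell features 4 had a UMI, among them ighm with 7 UMIs and blnk with 1, at a summed 9.82 CPM, against 2.66 CPM in cd4-1-positive and 21.3 CPM in il2rb-positive cells. Of 18 macrophage or dendritic features 9 had a UMI, at a summed 938 CPM (up to 21239 CPM in 1 cell), against 761 CPM in cd4-1-positive cells (up to 22067 CPM in 1 cell) and 1449 CPM in il2rb-positive cells. Within that sum, cd74a stood at 560 CPM and cd74b at 352 CPM in the coreceptor-low cells, and mpeg1.1 had 3 UMIs, all in 1 cell. Of 12 granulocyte features 7 had a UMI. The summed granulocyte list stood at 490 CPM, against 506 CPM in cd4-1-positive and 754 CPM in il2rb-positive cells. Of 15 erythroid features 8 had a UMI, and their sum stood at 433 CPM, against 382 CPM in cd4-1-positive and 420 CPM in il2rb-positive cells. The part of these transcripts in the results was not tested. No UMI of lck, zap70, bcl11ba, ccr7, klf2a or gzmk was found in 13 haemoglobin-rich marrow cells (median 7088 UMIs). These cells held at least 10% haemoglobin UMIs and were required to have under 2 trbc1 UMIs. The absence of T cell genes there is thus not independent of that choice. "Non-cytotoxic" did not mean that cytotoxic transcripts were absent. Of 17 NK or cytotoxic features 11 had a UMI, and nkl.1 and il2rb were at 0 by the rule. The summed list stood at 501 CPM, against 499 CPM in cd4-1-positive cells and 2978 CPM in il2rb-positive cells, where il2rb was required. Most of the coreceptor-low sum was gzmk, a granzyme gene, found in 146 of the 243 cells at 392 CPM (354 to 432). That was close to its 361 CPM in cd4-1-positive and 320 CPM in il2rb-positive cells.

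Of the 3 markers given for these cells, s1pr4 (ENSDARG00000074851), which encodes a sphingosine-1-phosphate receptor, differed most from the other marrow groups. The Krüppel-like transcription factor gene klf3 (ENSDARG00000015495) differed less. The level of p2rx1 (ENSDARG00000016695), which encodes an ATP-gated ion channel, did not stand above that of the cd4-1-positive cells. These markers were proposed with earlier results known, so their levels are a description. The s1pr4 level was 419 CPM in coreceptor-low cells (381 to 461), 247 CPM in cd4-1-positive cells (219 to 278) and 147 CPM in il2rb-positive cells (127 to 170). The intervals of the 3 groups did not overlap, and the level was 1.7-fold that of cd4-1-positive cells (1.46 to 1.98) and 2.85-fold that of il2rb-positive cells (2.39 to 3.4).

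Per cell, s1pr4 was unevenly spread. Of the coreceptor-low cells, 100 held none, 44 held 1, 39 held 2 and 60 held 3 or more UMIs, up to 18 in 1 cell. A UMI was thus found in 58.8% of them, against 99 of 198 cd4-1-positive cells and 26.6% of il2rb-positive cells. After each cell was thinned to 1395 UMIs the shares were 36.6% of coreceptor-low (30.6 to 43.0), 30.8% of cd4-1-positive (24.5 to 37.7) and 18.4% of il2rb-positive cells (13.8 to 23.7), so the interval of the coreceptor-low cells overlapped that of the cd4-1-positive cells. None of the 13 haemoglobin-rich cells held an s1pr4 UMI. Granulocyte-gene-rich cells had at least 2% of UMIs on the granulocyte list and were likewise required to have under 2 trbc1 UMIs. Of 12 such cells (median 7506 UMIs), 3 held an s1pr4 UMI after thinning. Whether these cells express s1pr4 themselves was not tested, so their share is not read as background. In barcodes under 100 UMIs, which hold free RNA, s1pr4 stood at 197 CPM, under the coreceptor-low level.

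The klf3 level was 144 CPM in coreceptor-low cells (122 to 170), 108 CPM in cd4-1-positive cells (89.7 to 129) and 101 CPM in il2rb-positive cells (84.2 to 120). Its share of thinned cells was 13.2%, against 15.7% of cd4-1-positive and 11.7% of il2rb-positive cells. The share and the CPM thus order the coreceptor-low and cd4-1-positive cells differently, and no order is read. When every marrow cell was thinned to 1395 UMIs before the rule, the log2 ratio of klf3 was 0.019 over cd4-1-positive cells and -0.47 over il2rb-positive cells, the second a change of direction. The p2rx1 level was 102 CPM in coreceptor-low cells (83.5 to 124), 128 CPM in cd4-1-positive cells (108 to 150) and 97.7 CPM in il2rb-positive cells (81.3 to 117), with overlapping intervals. In barcodes under 100 UMIs klf3 stood at 118 CPM and p2rx1 at 104 CPM, near the coreceptor-low levels, while the 13 haemoglobin-rich cells held no UMI of either. A UMI of all 3 markers was found in 14 coreceptor-low cells, of 2 markers in 52, of 1 in 109 and of none in 68. All 3 were thus found together in 5.76% of coreceptor-low cells, against 9.09% of cd4-1-positive and 6.25% of il2rb-positive cells, and exactly 2 in 21.4% of coreceptor-low cells, against 26.3% of cd4-1-positive cells and 41 of 256 il2rb-positive cells.

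**Figure D1:**
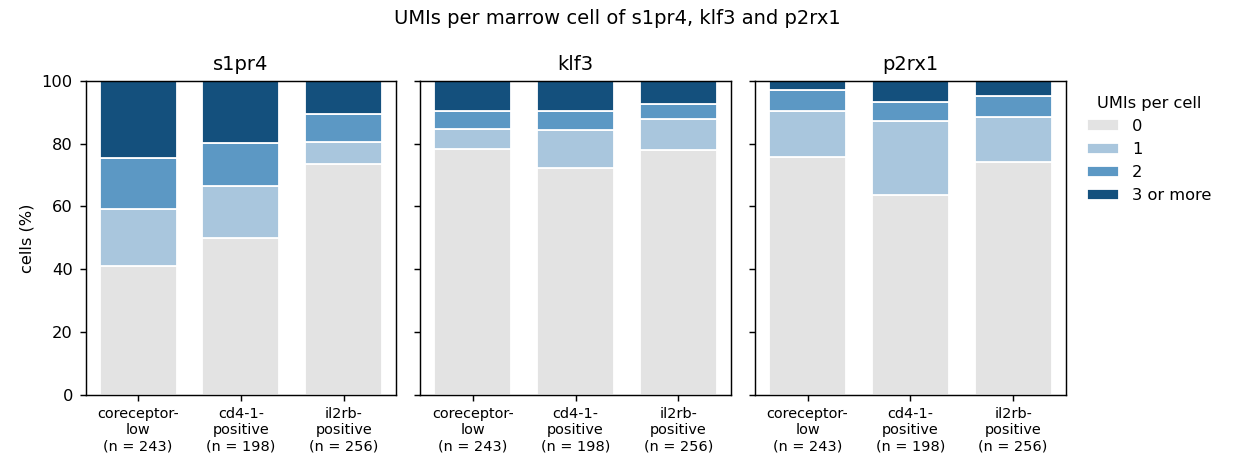
Percent of marrow cells holding 0, 1, 2 or 3 and more UMIs of s1pr4, klf3 and p2rx1, for coreceptor-low (n = 243), cd4-1-positive (n = 198) and il2rb-positive cells (n = 256), before thinning. The s1pr4 bars differ most, with 60 of 243 coreceptor-low cells at 3 or more UMIs, while the p2rx1 bar of the coreceptor-low cells has more cells at 0 than that of the cd4-1-positive cells.

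The comparison with cd4-1-positive cells asks what separates T cells without a detected coreceptor from cells of the same marrow with a cd4-1 UMI. Unlike the coreceptor-low cells, the cd4-1-positive cells were not filtered for foxp3a, il2rb, nkl.1, cd8a or cd8b. Of these 198 cells, 91 held exactly 1 cd4-1 UMI and 184 held 2 or more trbc1 UMIs, and 15 of 18 macrophage or dendritic features were detected in them. Most measured genes stood close together. The genes higher in coreceptor-low cells were few, and the leading ones marked a subset of the cells. The genes lower in coreceptor-low cells included histone, DNA replication and condensin genes. A gene was counted when its ratio, after 3 UMIs were added to each group, exceeded 2-fold, and it needed at least 100 UMIs in the summed pair of groups. Of 1593 such genes, 12 (0.753%) were higher and 74 (4.65%) lower in coreceptor-low cells, 5.4% in either direction.

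The largest excess belonged to si:dkeyp-13d12.23 (ENSDARG00000104518), a feature without a current symbol. It had 357 UMIs in 70 coreceptor-low cells, against 5 UMIs in 1 cd4-1-positive cell, a 79.2-fold difference in CPM (33.6 to 245). Next came si:ch211-207n23.2, at 174 CPM against 15.1 CPM, and BX897691.1, at 134 CPM against 29.2 CPM. FQ323156.1 (now si:ch73-52f24.4) stood at 155 CPM in coreceptor-low cells and 35.4 CPM in cd4-1-positive cells. None of these 4 features has a role assigned in the tables used here.

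Named signalling genes followed. The adaptor gene samsn1b, known in mammals to restrain lymphocyte signalling, stood at 151 CPM in coreceptor-low cells and 35.4 CPM in cd4-1-positive cells (4.27-fold, 3.0 to 6.21). Transcripts of stard3nl, whose product lies on late endosomes, stood at 80.5 CPM in coreceptor-low cells and 18.6 CPM in cd4-1-positive cells. Those of pdpk1a, the gene of a kinase that activates AKT, stood at 85.4 CPM and 21.3 CPM in the same groups. The remaining genes with the largest ratios in that direction were si:dkey-118j18.2, BX120005.1 and si:ch211-105j21.9, with folds between 2.01 and 2.34. With 3 UMIs added, si:ch211-105j21.9 lay just under 2-fold. A further pair past 2-fold, ccl38a.4 and ccl38.6, had 100% and 59.8% of their coreceptor-low UMIs in 1 cell.

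A pair of antigen presentation genes was also among the largest ratios. The MHC class II gene si:busm1-266f07.2 (mhc2daa) stood at 192 CPM in coreceptor-low cells and 88.6 CPM in cd4-1-positive cells. The invariant chain gene cd74a, whose product accompanies class II molecules, stood at 560 CPM and 290 CPM in the same groups, just under 2-fold. Both are also genes of antigen-presenting cells. The summed macrophage or dendritic list stood at 938 CPM in coreceptor-low and 761 CPM in cd4-1-positive cells. Of these sums cd74a itself made up 560 CPM and 290 CPM, and the summed rest of the list was not higher in coreceptor-low cells. Single cells weigh on these sums, with up to 21239 CPM in 1 coreceptor-low and 22067 CPM in 1 cd4-1-positive cell. The median cell held 320 CPM of the list, cd74a included, in coreceptor-low and 0 CPM in cd4-1-positive cells. After thinning, a cd74b UMI was found in 27.6% of coreceptor-low and 15.2% of cd4-1-positive cells. The part of antigen-presenting cells in the result was not tested. A cd74a UMI was found in 110 of 243 coreceptor-low cells, against 34 of 198 cd4-1-positive cells, and 1 of the 34 held 40.2% of that group's UMIs. Class II genes have near-identical copies among which reads could be split, so their levels are uncertain.

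Lower in coreceptor-low cells were the histone features zgc:165555 (136 CPM against 570 CPM) and zgc:110425 (95.3 CPM against 388 CPM), which belong to a family of near-identical copies and are uncertain. Genes of DNA replication and chromosome structure accompanied them: pclaf, which binds the replication clamp, stood at 53.0 CPM in coreceptor-low cells and 178 CPM in cd4-1-positive cells, DUT at 65.8 CPM and 205 CPM, smc2, a condensin subunit, at 26.5 CPM and 89.4 CPM, and hmgb2b, a chromatin protein, at 188 CPM and 518 CPM. The genes hmgn3, tubb2b, cox6b1, atp5mc1 and tspy lay between 2.68-fold and 3.71-fold lower. These UMIs sat in few cells: of the 12 named genes, 10 had 31.5% or more of their coreceptor-low UMIs in 1 cell. The shares of cells with the histone features differed little. A zgc:165555 UMI was found in 13.2% of coreceptor-low and 16.2% of cd4-1-positive cells, and a zgc:110425 UMI in 8.64% and 8.59%. Of their cd4-1-positive UMIs, 19.4% and 19.6% were in 1 cell. The feature si:dkey-1h24.6 was spread over more cells, found in 17.7% of coreceptor-low and 54.0% of cd4-1-positive cells. Without the 1% of marrow cells that had the most UMIs, 44 genes were lower in place of 74.

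The comparison with il2rb-positive cells asks what separates the same T cells from marrow lymphocytes with a cytotoxic transcript set. Coreceptor-low cells were higher in bcl11ba, zap70, ccr7 and fosb, and lower in fcer1g, nkl.4, prf1.9 and the chemokine genes ccl36.1 and ccl38.6. Of 1665 genes, 37 (2.22%) were higher and 94 (5.65%) lower in coreceptor-low cells past 2-fold, 7.87% in either direction. Both comparisons use the same 243 cells, so they are not independent. The il2rb-positive cells were not required to hold trbc1: 218 of 256 held 2 or more UMIs of it and 15 held none. Levels of genes carried by the same cells as trbc1 are thus not independent of that requirement.

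The T lineage commitment factor gene bcl11ba stood at 364 CPM in coreceptor-low cells and 73.3 CPM in il2rb-positive cells (4.97-fold, 3.95 to 6.31), found in 166 of 243 and 64 of 256 cells. The gene zap70, for the kinase that docks on the activated T cell receptor, stood at 223 CPM in coreceptor-low cells and 66.2 CPM in il2rb-positive cells (3.37-fold, 2.61 to 4.38). The receptor gene ccr7, whose product guides naive T cells to lymphoid organs in mammals, stood at 159 CPM and 55.2 CPM in the same groups (2.88-fold, 2.17 to 3.87). In cd4-1-positive cells bcl11ba, zap70 and ccr7 stood at 350, 275 and 145 CPM, so the coreceptor-low levels lay much closer to the cd4-1-positive than to the il2rb-positive ones. The AP-1 factor gene fosb stood at 151 CPM in coreceptor-low cells, against 26.0 CPM in il2rb-positive cells (5.82-fold, 3.97 to 8.75). After thinning, a fosb UMI was found in 11.5% of coreceptor-low, 18.7% of cd4-1-positive and 3.13% of il2rb-positive cells.

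The other genes with the largest ratios in that direction were si:dkeyp-13d12.23 (351 CPM against 35.5 CPM), gig2d and gig2h, members of a fish gene family induced by virus, si:ch211-207n23.2, CU207241.1, dennd2da and ascc1. The level of gig2d was 104 CPM in coreceptor-low cells and 20.5 CPM in il2rb-positive cells, with 19.8% of its coreceptor-low UMIs in 1 cell.

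Among the lower genes, fcer1g, the signalling adaptor of activating receptors on natural killer cells, stood at 17.7 CPM in coreceptor-low cells and 349 CPM in il2rb-positive cells, 19.8-fold lower (12.4 to 33.6). The chemokine gene ccl36.1 stood at 107 CPM in coreceptor-low cells, found in 18 cells, and at 2057 CPM in il2rb-positive cells, found in 150. The chemokine gene ccl38.6 stood at 100.2 CPM and 844 CPM in the same groups, and 59.8% of its coreceptor-low UMIs were in 1 cell. The NK-lysin gene nkl.4 had 5 UMIs in coreceptor-low cells, against 220 in il2rb-positive cells. The perforin gene prf1.9 had 3 against 116, and the granzyme gene gzm3.3 had 5 against 108. The features nptna, prkca, si:ch211-102c2.4, si:dkey-183i3.6, CR753876.1 and si:ch211-136m16.8 were between 9.24-fold and 39.3-fold lower. Absence of il2rb and nkl.1 was required of the coreceptor-low cells, and genes carried by the same cells as these transcripts are not independent of that choice. NK-lysin, perforin, granzyme and chemokine genes have close copies, so the split of reads among them is uncertain.

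**Figure D2:**
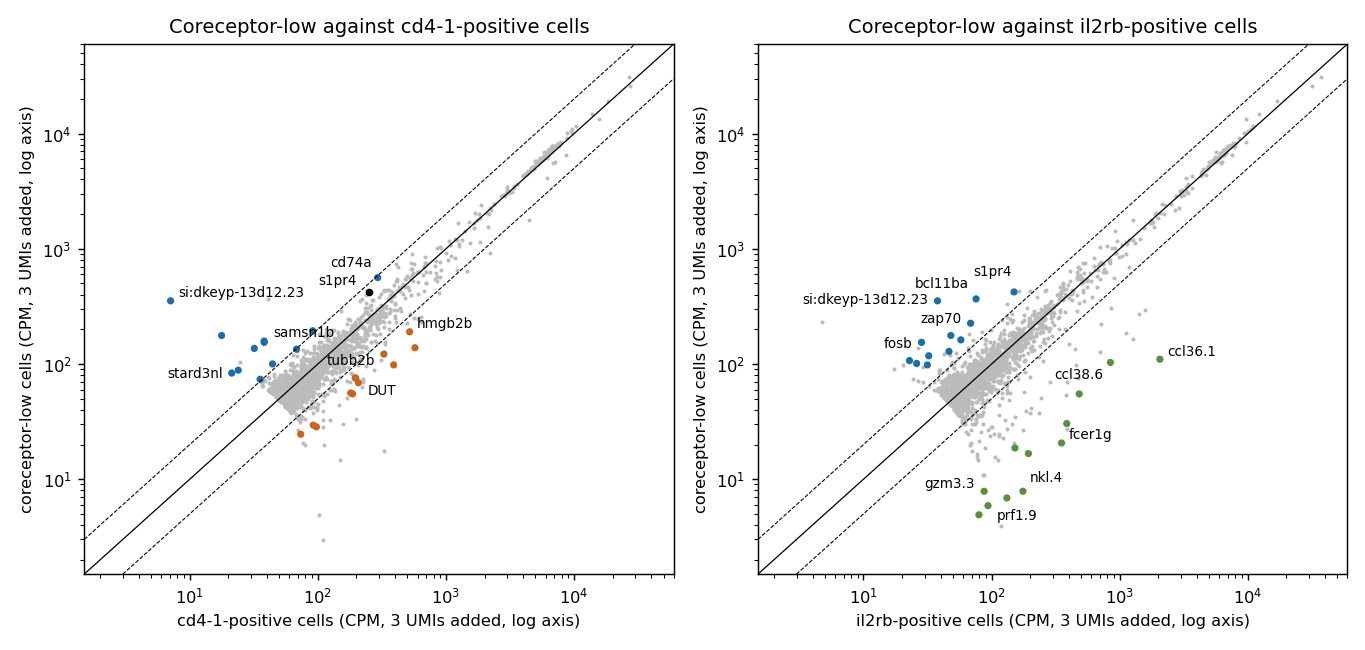
Level of each gene with at least 100 UMIs in coreceptor-low cells (vertical, CPM with 3 UMIs added, log axis) against cd4-1-positive cells (left panel) and il2rb-positive cells (right panel). Grey points are genes, coloured points are those the naming rule took (blue higher in coreceptor-low cells, orange or green lower), the black point in the left panel is s1pr4, the full line marks equal levels and the dashed lines 2-fold. Genes past 2-fold number 86 in the left panel and 131 in the right.

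Gene lists were then counted in both comparisons, with the medians of all genes at -0.09 (log2) against cd4-1-positive cells and -0.01 against il2rb-positive cells. Over all genes, 0.753% were higher and 4.65% lower past 2-fold against cd4-1-positive cells. Against il2rb-positive cells the shares were 2.22% and 5.65%. Every list count below is to be read beside these shares. Of 12 measured egress and homing genes, none passed 2-fold against cd4-1-positive cells, and the median log2 ratio was 0.38. The zebrafish KLF2 gene klf2a stood at 179 CPM in coreceptor-low cells (154 to 207), against 99.2 CPM in cd4-1-positive cells (81.7 to 119) and 64.6 CPM in il2rb-positive cells (51.4 to 80.2). In barcodes under 100 UMIs klf2a stood at 105 CPM. The gene cxcr4a, for a receptor of the marrow chemokine CXCL12, stood at 192 CPM in coreceptor-low cells, against 127 CPM in cd4-1-positive and 96.2 CPM in il2rb-positive cells. Its more abundant paralogue cxcr4b differed less, at 2390 CPM in coreceptor-low, 1890 CPM in cd4-1-positive and 2247 CPM in il2rb-positive cells. After thinning, a cxcr4b UMI was found in 88.1% of coreceptor-low, 88.4% of cd4-1-positive and 89.5% of il2rb-positive cells. The gene ccr9a, for a receptor of the thymic and gut chemokine CCL25, stood at 743 CPM in coreceptor-low cells, against 531 CPM in cd4-1-positive and 512 CPM in il2rb-positive cells. Against il2rb-positive cells, 3 of 13 genes were higher (s1pr4, klf2a, ccr7) and 1 was lower, itgae.2, the tissue-retention integrin gene, at 27.5 CPM against 68.6 CPM. Of the 3, s1pr4 was a marker proposed for these cells with earlier results known. The itgae.2 gene had 28 UMIs in coreceptor-low cells and reached 100 UMIs through the il2rb-positive cells, so its count as lower is not read.

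T cell receptor signalling genes stood near the cd4-1-positive level. Of 16 measured, none was higher and 2 were lower past 2-fold: the costimulatory receptor gene cd28, at 39.3 CPM against 91.2 CPM, and the adaptor gene sh2d1ab, at 145 CPM against 332 CPM. Against il2rb-positive cells, 1 of 14 was higher (zap70) and 2 were lower, sh2d1ab and the adaptor gene sla2, which stood at 219 CPM against 710 CPM. Of 15 resting T cell factors and survival genes none passed 2-fold against cd4-1-positive cells. Against il2rb-positive cells, 2 of 15 were higher (bcl11ba, klf2a) and 1 was lower, runx3, a factor of cytotoxic lineages, at 48.1 CPM against 241 CPM. The naive T cell factor gene tcf7 had too few UMIs for either count, at 43 UMIs in coreceptor-low, 44 in cd4-1-positive and 19 in il2rb-positive cells.

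Of 28 cytotoxic features, 11 reached 100 UMIs against il2rb-positive cells and 4 against cd4-1-positive cells, so most were measured through the il2rb-positive cells, and no count over them is read. The gzmk log2 ratio over il2rb-positive cells was 0.29. Another granzyme gene, gzma, lay between the groups: it had 55 UMIs in 19 coreceptor-low cells, 4 UMIs in 4 cd4-1-positive cells and 223 UMIs in 84 il2rb-positive cells. Regulatory genes were few. The paralogue foxp3b of the excluded foxp3a had 50 UMIs in coreceptor-low, 69 in cd4-1-positive and 3 in il2rb-positive cells, while tnfrsf18 had 2 UMIs in coreceptor-low and 42 in cd4-1-positive cells. Absence of foxp3a was required of the coreceptor-low cells but not of the comparison groups. Levels of genes carried by the same cells as foxp3a are not independent of that choice, so no difference is read.

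Of 22 proliferation features, 8 reached 100 UMIs against cd4-1-positive cells and lay past 2-fold lower. Of these, hmgb2a and tubb2b alone had 100 UMIs without the cd4-1-positive cells, so the count is partly set by the minimum. The gene mki67, expressed in dividing cells, had 87 UMIs in 4 coreceptor-low cells, against 308 UMIs in 11 cd4-1-positive cells. The 2 deepest coreceptor-low cells, with 19834 and 43060 UMIs, held 24 and 61 of the 87. Against il2rb-positive cells, 3 of 6 of these genes were higher (mki67, top2a, tubb2b), where the same 2 deep cells supply most of the mki67 UMIs. A mki67 UMI was found in 4 of 243 coreceptor-low and 4 of 256 il2rb-positive cells.

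Of 15 measured cytoskeleton genes, 2 were past 2-fold lower than in cd4-1-positive cells and none higher, and the median log2 ratio was -0.52. The cytoplasmic actin gene actb1 stood at 919 CPM in coreceptor-low and 2191 CPM in cd4-1-positive cells. The other, s100a10b, had 2 UMIs, against 112 UMIs of which 99.1% were in 1 cd4-1-positive cell. Of the coreceptor-low actb1 UMIs, 31.6% were in 1 cell. After thinning, an actb1 UMI was found in 31.7% of coreceptor-low and 36.9% of cd4-1-positive cells, with means of 0.71 and 1.16 UMIs per cell. The more abundant actin gene actb2 had means of 6.85 and 7.32 UMIs per thinned cell in the same groups. Against il2rb-positive cells none of 12 cytoskeleton genes passed 2-fold and the median was 0.00. Cytosolic ribosomal protein genes made up 465234 CPM of the coreceptor-low transcripts, against 428527 CPM in cd4-1-positive and 439058 CPM in il2rb-positive cells. None of 79 passed 2-fold in either comparison. No cytokine receptor gene passed 2-fold among the 6 measured in each comparison. No gene of the MHC and antigen processing list did among the 12 and 11 measured, and si:busm1-266f07.2, which passed 2-fold, is not on that list.

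**Figure D3:**
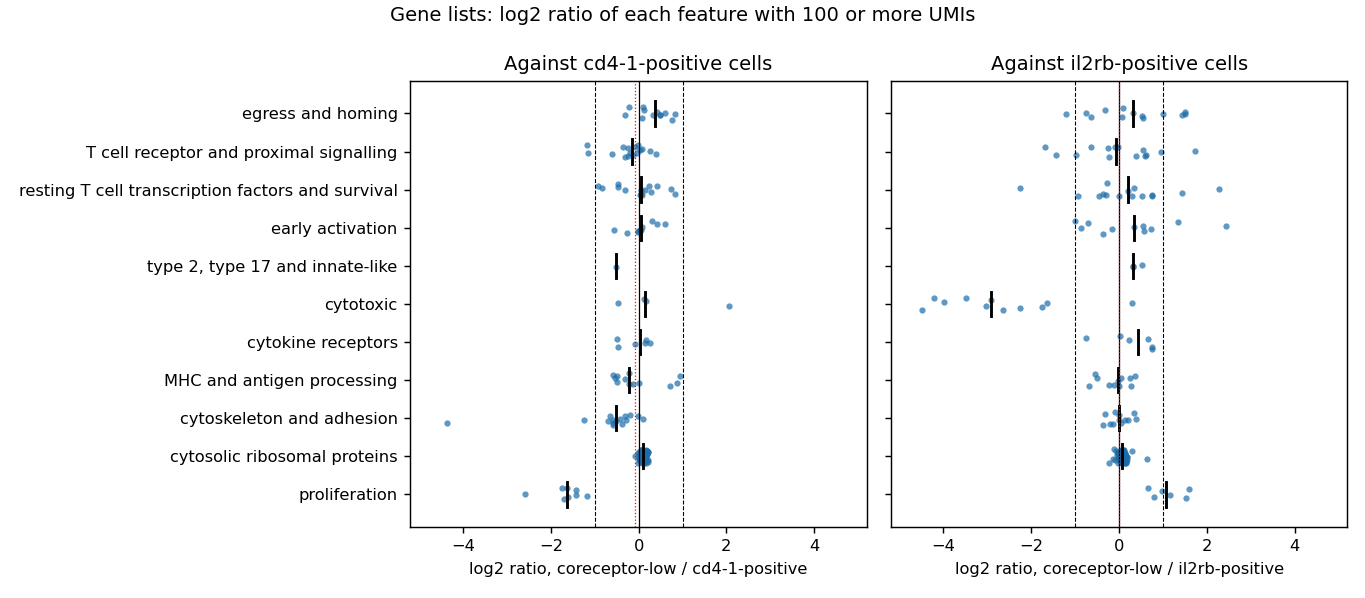
Log2 ratio (3 UMIs added) of every listed gene with at least 100 UMIs, coreceptor-low over cd4-1-positive cells on the left and over il2rb-positive cells on the right. Each point is a gene, the black bar is the list median, the red dotted line the median of all genes and the dashed lines 2-fold. Ribosomal protein genes sit between -0.07 and 0.22 on the left. Most cytotoxic genes are on the right only because their UMIs in il2rb-positive cells brought them past the minimum.

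The coreceptor-low cells were then split by s1pr4, which asks whether cells with the receptor transcript carry other genes at other levels. The 143 cells with an s1pr4 UMI (median 3892 UMIs) were higher in klf3 and klf2a than the 100 cells without one (median 3666 UMIs), and had fewer UMIs of the chemokine genes ccl36.1 and ccl38.6, while p2rx1 and ccr7 lay close together. The klf3 level was 192 CPM in cells with s1pr4 (159 to 230) and 71.7 CPM in cells without (48.0 to 103), a 2.68-fold difference (1.78 to 4.18). The klf2a level was 223 CPM (188 to 264) and 111 CPM (81.1 to 149) in the same classes. The p2rx1 level was 103 and 101 CPM, and that of ccr7 161 and 156 CPM. Of 1450 genes with at least 50 UMIs, 8 (0.552%) were higher and 27 (1.86%) lower in cells with s1pr4, 2.41% in either direction.

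The levels did not climb steadily with s1pr4. In the 100, 83 and 60 cells with 0, 1 to 2, and 3 or more s1pr4 UMIs, klf3 stood at 71.7, 239 and 142 CPM and klf2a at 111, 226 and 220 CPM. The p2rx1 level was 101, 88.0 and 119 CPM. The median depth of the 3 classes was 3666, 3707 and 4154 UMIs, with the deepest cells in the highest class.

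The other genes with the largest ratios in cells with s1pr4 were si:zfos-2326c3.2 (112 CPM against 24.7 CPM), anxa1a, an annexin gene (81.5 CPM against 24.7 CPM), rc3h2, which encodes a repressor of mRNAs, prkd2, a protein kinase gene, and lipia, a phospholipase gene. The smallest ratios were those of BX571880.1 (31.0 CPM against 193 CPM), BX248082.1 (143 CPM against 455 CPM), rest, tsr2, dusp2, a phosphatase gene induced by activation, and nfkbie, an inhibitor of NF-kappa-B. The level of dusp2 was 134 CPM in cells with s1pr4 and 301 CPM in cells without. The chemokine genes ccl36.1 and ccl38.6 had 17 and 8 UMIs in cells with s1pr4, against 92 and 94 in cells without. Of the UMIs in cells without s1pr4, 40.2% of ccl36.1 and 64.9% of ccl38.6 sat in 1 cell. When each cell was thinned before the split, the klf3 log2 ratio was 0.60 in place of 1.32. In thinned cells, klf3 was found in 15.7% of cells with an s1pr4 UMI and 11.7% of those without. The shares of klf2a were 23.6% and 17.5%.

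Over all 983 called marrow cells, the genes whose log2(CPM + 10) was most like that of s1pr4 were klf2a (Pearson's r = 0.36), lipia (0.29), klf3 (0.24), nrros (0.24), si:dkey-216e24.9 (0.24) and cxcr4b (0.24), among 3627 genes compared. These are weak correlations across cells of 1 library that share its depth and free RNA, and they are a description only. Over the 243 coreceptor-low cells alone, Pearson's r of s1pr4 and klf3 was 0.006. Before thinning, a klf3 UMI was nonetheless found in 39 of 143 cells with an s1pr4 UMI and in 14 of 100 without. Most of these cells hold no klf3 UMI, and no relation from cell to cell is read from the correlation.

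Among the coreceptor-low cells themselves, CR318588.1 and CR318588.4 were among the most variable features. After thinning each cell to 1395 UMIs, CR318588.1 (ENSDARG00000092191, now si:dkey-238c7.13) had a variance 37.1 times its mean, and CR318588.4 (ENSDARG00000095556, now si:dkey-238c7.12) 13.5 times, against a median of 1.11 over 765 genes. BX901920.1 ranked between them at 14.8 times. CR318588.1 ran from 0 to 150 UMIs per thinned cell, with a median of 9: 56 cells held none and 86 held more than 20. Its median was 23.5 in cd4-1-positive cells and 1 in il2rb-positive cells. CR318588.4 had a median of 38 in coreceptor-low, 45 in cd4-1-positive and 38 in il2rb-positive cells. The nuclear RNA malat1 (CR383676.1) had a median of 45 and a ratio of variance to mean of 7.09. The other leading features, with BX901920.1, were si:ch73-226l13.2, CU914776.1, ccl36.1, ccl38.6, BX248082.1 and hmgn2. Apart from hmgn2, each of these was found in at most 26 of the 243 thinned cells. BX901920.1, CU914776.1 and BX248082.1 were each found in over 51% of thinned il2rb-positive cells and moved together within the coreceptor-low cells (r between 0.76 and 0.83 over 243 cells that share 1 library).

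The feature si:dkeyp-13d12.23 divided the coreceptor-low cells. This split was chosen after the values were seen, and it is described without a test. The 70 cells with a UMI (28.8%, 23.2 to 34.9) and the 173 without had alike depth, with medians of 3755 and 3838 UMIs, and trbc1 (FP236356.1) at 1562 and 1513 CPM. The 70 cells held most of the coreceptor-low UMIs of trdc, sox13 and blk. These genes reached the minimum of 50 UMIs through the 70 cells, so no count over their list is read. Of all 1450 genes, 64 (4.41%) were higher and 76 (5.24%) lower, 9.66% in either direction. The gene trdc (ENSDARG00000104684), the constant gene of the T cell receptor delta chain, had 62 UMIs in 34 of the 70 cells, against 3 UMIs in 3 of the 173. The gene sox13, for a factor of gamma-delta T cells in mice, had 60 UMIs in 38 cells, against 10 UMIs in 2 cells. The gene blk, for a Src family kinase found in mouse gamma-delta T cells, had 61 UMIs in 36 cells, against 9 UMIs in 8 cells.

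In cd4-1-positive cells trdc, sox13 and blk had 16, 1 and 2 UMIs, and in il2rb-positive cells 14, 23 and 70. The feature si:dkey-21h14.8 had 85 UMIs in cells with si:dkeyp-13d12.23 and 1 UMI in cells without, and si:ch211-207n23.2 had 168 and 9. The samsn1b level was 398 CPM in cells with si:dkeyp-13d12.23 and 60.5 CPM in cells without (6.58-fold, 4.61 to 9.53). The helix-loop-helix inhibitor gene id3 stood at 1547 and 672 CPM in the same cells, and thrap3a at 142 and 14.8 CPM. The gene gata3, for a factor of T cell development and type 2 responses, had 17 UMIs in the 70 cells and 16 in the 173.

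The given markers separated along this split. The klf3 level was 25.5 CPM in cells with si:dkeyp-13d12.23 (10.3 to 52.6) and 188 CPM in cells without (158 to 222). The p2rx1 level was 29.2 CPM (12.6 to 57.5) and 129 CPM (104 to 158). The s1pr4 level was 503 CPM (423 to 595) and 388 CPM (345 to 436), and klf2a stood at 215 and 165 CPM, so the receptor and klf2a were found in both. The cells without si:dkeyp-13d12.23 had p2rx1 at the cd4-1-positive level of 128 CPM, and klf3 above the cd4-1-positive level of 108 CPM.

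Also lower in the 70 cells were fosb (18.2 CPM against 200 CPM), the chemokine receptor gene cxcr3.1 (32.8 CPM against 210 CPM), the interleukin 7 receptor gene il7r (43.8 CPM against 122 CPM), the cytokine signalling inhibitor socs3a (124 CPM against 406 CPM) and foxp3b (1 UMI against 49). The features si:ch73-285p12.4, si:dkey-1h24.6, syk, si:ch211-214p16.2 and si:ch211-214p13.8 each had 1 UMI in the 70 cells, against 57 to 115 UMIs in the 173 cells. CR318588.1 had a median of 1 UMI per thinned cell in the 70 cells and 18 in the 173. Thus 46.8% of the 173 cells held more than 20, against 7.14% of the 70. The levels of gzmk (358 against 404 CPM), bcl11ba (328 against 378 CPM) and ccr7 (150 against 163 CPM) lay close together, with overlapping intervals.

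**Figure D4:**
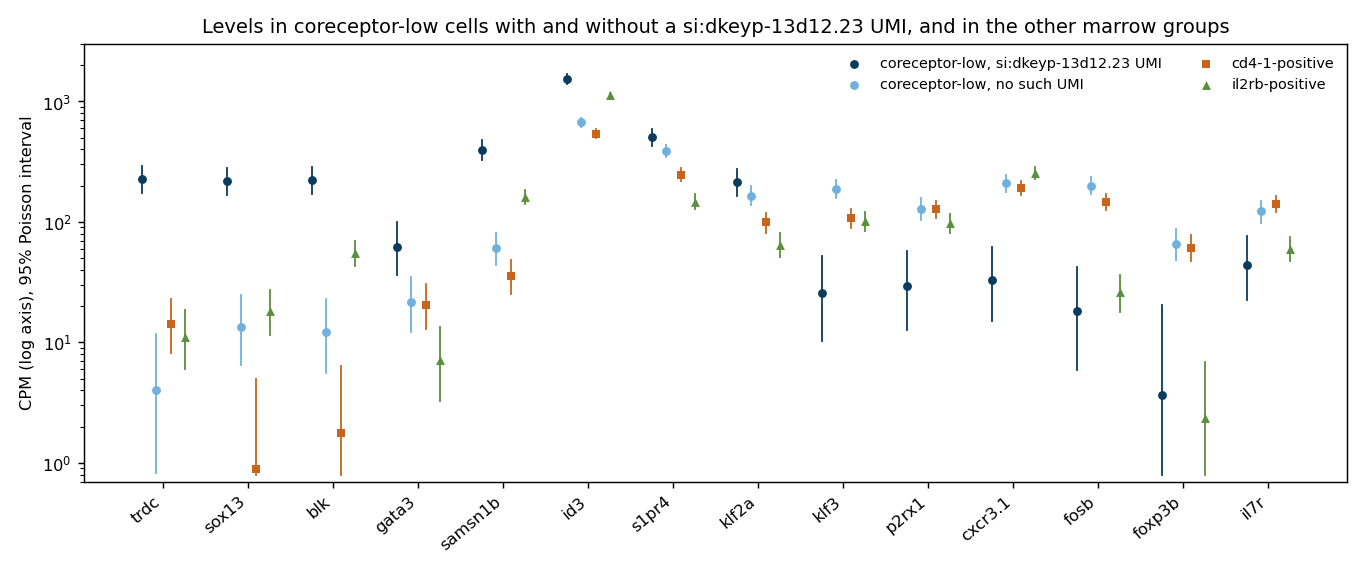
CPM (log axis) with exact Poisson 95% intervals of 14 genes in coreceptor-low cells with a si:dkeyp-13d12.23 UMI (n = 70), coreceptor-low cells without one (n = 173), cd4-1-positive cells (n = 198) and il2rb-positive cells (n = 256); intervals are drawn no lower than the axis start. The levels of trdc, sox13 and blk are highest in the 70 cells, klf3, p2rx1, fosb and foxp3b are low there, and s1pr4 and klf2a are high in both coreceptor-low sets.

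**Figure D5:**
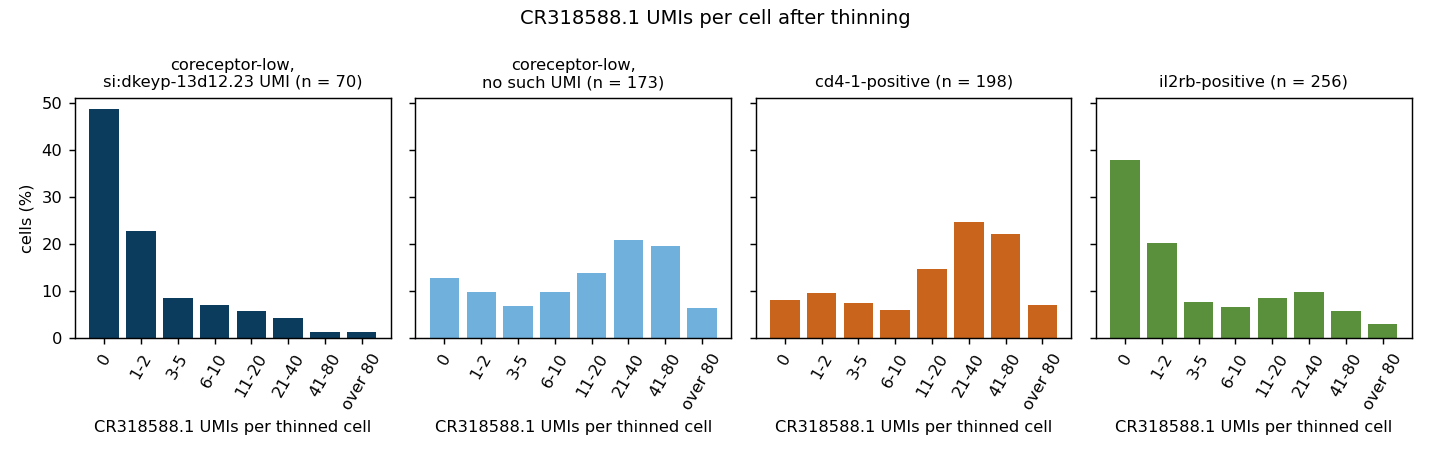
Percent of cells in classes of CR318588.1 UMIs after each cell was thinned to 1395 UMIs, in the same 4 sets of cells. The 70 coreceptor-low cells with si:dkeyp-13d12.23 and the il2rb-positive cells mostly hold 2 or fewer, while 46.8% of the 173 without it and 54.0% of the cd4-1-positive cells hold more than 20.

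Removing the 70 cells changed the comparisons. Without them, 4 genes were past 2-fold higher than in cd4-1-positive cells, in place of 12. The feature si:dkeyp-13d12.23 then has 0 UMIs by construction, and si:ch211-207n23.2 lay below both comparison groups, at log2 ratios of -0.14 against cd4-1-positive cells and -1.58 against il2rb-positive cells. The klf3 log2 ratio over cd4-1-positive cells was 0.80 without them, in place of 0.41.

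A smaller set of 18 cells held 2 or more UMIs of NK-lysin, perforin or granzyme genes other than gzmk (median 4199 UMIs). In the 18 cells s1pr4 stood at 180 CPM (101 to 297), against 441 CPM (399 to 485) in the other 225. The gzmk level was 708 CPM and 364 CPM in the same sets. Requiring no such UMI at all left 21.5% of called marrow cells.

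The same rule in the other tissues found 100 scale and 491 thymus cells, at their own minimum of 500 UMIs. In the 100 scale cells (median 3291 UMIs) s1pr4, klf3, p2rx1 and klf2a all had 0 UMIs, which allows up to 8.97 CPM each. The filamin A gene flna stood at 10.8 CPM in the marrow coreceptor-low cells and 711 CPM in the scale cells, and itgae.2 at 27.5 and 439 CPM. In the 491 thymus cells (median 2027 UMIs) s1pr4 had 0 UMIs, which allows up to 1.3 CPM, and klf3 had 2. The p2rx1 level was 102 CPM in the marrow cells and 522 CPM in the thymus cells, where the recombinase gene rag1 stood at 1079 CPM. It had 0 UMIs in the marrow cells. The level of si:dkeyp-13d12.23 was 351 CPM in the marrow cells, 224 CPM in the scale cells and 221 CPM in the thymus cells, and trdc at 63.8, 26.9 and 82.2 CPM. Over all called cells s1pr4 had 1133 UMIs in marrow, 2 in scale and 1 in thymus. Tissue, library, counting software and, for the thymus, the sort gate cannot be told apart in these values.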

How the data were processed

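The authors deposited a matrix of UMI counts, not normalized, for each of kidney marrow, scale and thymus. Per the file headers, the marrow matrix was written by Cell Ranger 4 and the others by version 6.0.0. The submitters' processing notes name Cell Ranger 6.0.0, Seurat 4.3.0 and build GRCz11. The marrow matrix lists 672506 barcodes, 149924 of them without a UMI, and the scale and thymus matrices start at 501 and 500 UMIs. The marrow minimum of 1395 UMIs is the given rule's: the UMI totals of the 3000 largest barcodes were ranked, and their percentile 99 was divided by 10. It left 990 barcodes, 989 with 250 genes and 983 within the mitochondrial limit. Marrow totals were 4987653 UMIs, and those of scale and thymus 1351690 and 12405147. Doublets were not called.

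UMIs were summed per group. CPM have exact Poisson, shares exact Clopper-Pearson and folds exact conditional binomial 95% intervals. Log2 ratios add 3 UMIs per group. A count of 0 is given a limit of 3 counts. Thinning drew 1395 UMIs per cell without replacement (seed 1). Genes were named as the 12 largest and 12 smallest ratios per comparison (6 per split), with a UMI in at least 5% of cells and at most 20% of UMIs in 1 cell of the higher group, plus listed genes and the 10 highest ratios of variance to mean. Members and lists were chosen with earlier results of these data known. Of 31900 features with an Ensembl ID, 29177 had an entry among current symbols, and these served for list genes that the files name otherwise. No genome was used. The ranking was tested on simulated data. Alternatives included other UMI, gene and mitochondrial limits, other trbc1, cd4-1 and il2rb limits, thinning before the rule, equal weight per cell and other fold limits. Python 3.11.15, numpy 2.4.6, scipy 1.17.1, pandas 2.3.3 and matplotlib 3.10.9 were used.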

Additional observations from a re-analysis of the deposited data

Results flagged for a closer look

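No comparison uses the marrow barcodes under the minimum of 1395 UMIs. A set of 100 of them, not all such barcodes, was looked at. In it 24 otherwise passed the rule, with a median of 843.5 UMIs. Their s1pr4 level was 394 CPM (8 UMIs, 170 to 777), above the 148 CPM that a count of 0 would allow there. The interval holds the 197 CPM that s1pr4 had in free RNA of barcodes under 100 UMIs, so the level is not set apart from that background. It lies in data outside the main comparisons, and its cause was not tested.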

How the results depend on the processing

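Of 307 values for the main comparisons under an alternative, 266 stayed within their counting error or within 1.5 times the reported count, 41 moved, and none of those past 2-fold turned. Among log2 ratios under 2-fold the sign changed in 8 cases, 7 of p2rx1 within counting error and 1 of klf3. A further 2211 values covered named genes, klf2a, gene list counts, numbers of genes tested and medians of all genes. Of these, 1987 stayed, 220 moved and 4, all of named genes past 2-fold, turned. The cell share was 27.6% with 1 trbc1 UMI, 17.8% with 4 and 21.5% without UMIs of other granule genes. With every marrow cell thinned before the rule, 252 cells passed, s1pr4 stood at 346 CPM and in 51.6% of cells, the log2 ratios of s1pr4 and klf3 were 0.44 and 0.019 against cd4-1-positive cells and 0.71 and -0.47 against il2rb-positive cells, and that of klf3 in the s1pr4 split was 0.79. The genes higher and lower then numbered 24 and 90 against cd4-1-positive cells, 21 and 44 against il2rb-positive cells, and 16 and 61 in the split. Klf3 thus turned direction against il2rb-positive cells. With equal weight per cell the s1pr4 log2 ratios were 0.53 and 1.25, and 42 genes were lower than in cd4-1-positive cells. With 2 cd4-1 UMIs required, the s1pr4 and klf3 log2 ratios were 1.05 and 1.03. With at least 3000 UMIs per cell the klf3 log2 ratio against il2rb-positive cells was 0.92. Without the 1% of deepest cells 44 genes were lower than in cd4-1-positive cells. With no minimum of UMIs per gene, 644 and 809 genes were higher and lower against cd4-1-positive cells and 1223 and 676 against il2rb-positive cells. At 1.5-fold these were 58 and 203, and 109 and 195. Without the cells holding si:dkeyp-13d12.23, an alternative chosen after seeing the data, klf3 and p2rx1 stood at 188 and 129 CPM, the klf3 log2 ratios were 0.80 and 0.90, and 4 genes were higher than in cd4-1-positive cells. The log2 ratios of si:dkeyp-13d12.23, which then has 0 UMIs by construction, were -0.81 and -3.23, and those of si:ch211-207n23.2 were -0.14 and -1.58. In the split by s1pr4, genes higher numbered 5 with a minimum of 500 UMIs, 14 with 2 or more UMIs set against 0, and 14 with cells thinned before the split, where 36.6% held a UMI and the klf3 log2 ratio was 0.60. At the marrow minimum 304 thymus cells passed the rule. The cause of these moves was not tested. No paired analysis was possible because each tissue has 1 library. Depth limits genes under about 100 UMIs, and 0 UMIs of an excluded gene does not show its absence.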
